A study of Mus musculus with 6 samples.

Results

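Id1, Id2, Id3, Id4 and Atoh8 are genes that bone morphogenetic protein (BMP) signalling switches on directly, and their transcripts were followed in colon tissue of mice labelled Smad4 knockout or wild type. They are 5 of the 22354 genes the authors deposited, taken by symbol, and all 5 passed the count filter, which kept 14180 genes. They were named for their known role and selected on their read counts in knockout against wild type, which had already been seen, so the difference between the groups is given as a description without a test. RNA-seq covered 6 libraries, 3 labelled Smad4 knockout (genotype Smad4Lrig1) and 3 labelled Smad4 wild type (SMAD4+ controls), from C57BL/6J mice dissected 1 month after tamoxifen, which both groups had received. The colon was first freed of its crypts, and the layer beneath was scraped off the muscle for RNA. The age of the mice, the cells in which the deletion took place and the deleted part of the gene are not given in the sources used here.

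BMP ligands bind a receptor pair of type I and type II kinases, which phosphorylates Smad1, Smad5 and Smad9. These join Smad4, the partner shared with the TGF-beta branch, and the complex enters the nucleus and binds DNA. In the colon, BMP signalling is known to be low at the crypt base and high toward the lumen, where it favours differentiation over stem cell renewal. The Id genes are among its most direct responses. Id proteins are helix-loop-helix factors without a basic DNA-binding region that capture the E proteins and so keep them from partnering tissue-specific factors. Atoh8 is a basic helix-loop-helix factor that also responds to BMP.

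The DNA just before the RefSeq start of the genes was searched because the same Smad complex is thought to act on all of them. RefSeq promoter windows (GRCm38.p6, the same assembly as mm10) were found by symbol for Id2, Id3, Id4 and Atoh8 but not for Id1, which was not searched. The 250 bases before the start were searched on both strands for GTCT, the box bound by Smad4 and Smad3. They were also searched for GGCGCC and GGAGCC, GC-rich words bound by the BMP Smads. None of these words overlapped another in the windows. Over all 32851 windows of this length, GTCT was present in 82.9%, GGAGCC in 26.0% and GGCGCC in 9.59%. The window of Id2 held all 3 words and that of Id3 held GTCT and GGAGCC. That of Id4 held GGCGCC and GGAGCC, and that of Atoh8 held none of them. For Id2 and Id3 the window lies within the span of the gene in GENCODE and overlaps an exon of it. For these genes stretches of 30 bases around the words are shown. Capitals mark the words, read on either strand.
Id2 (chr12:25096306-25096335, minus strand): tcaggccccctgGGCGCCcagcgcacactg
Id2 (chr12:25096163-25096192, minus strand): gtatgatggacgGGAGCCcttccaccaatg
Id2 (chr12:25096098-25096127, minus strand): agtgcacataaaAGACgccccgcccggctc
Id3 (chr4:136143630-136143659, plus strand): tccgaGGCTCCgctgtcctcggcgtcAGAC
Id3 (chr4:136143742-136143771, plus strand): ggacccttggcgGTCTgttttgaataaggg
Id4 and Atoh8 are shown whole, since their windows overlap no exon of the gene.
Id4 (chr13:48260866-48261115, plus strand): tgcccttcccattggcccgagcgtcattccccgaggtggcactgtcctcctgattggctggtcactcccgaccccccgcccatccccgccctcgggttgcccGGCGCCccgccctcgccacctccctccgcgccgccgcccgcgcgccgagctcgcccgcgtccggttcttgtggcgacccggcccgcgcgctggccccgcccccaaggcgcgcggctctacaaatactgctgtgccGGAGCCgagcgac
Atoh8 (chr6:72235578-72235827, minus strand): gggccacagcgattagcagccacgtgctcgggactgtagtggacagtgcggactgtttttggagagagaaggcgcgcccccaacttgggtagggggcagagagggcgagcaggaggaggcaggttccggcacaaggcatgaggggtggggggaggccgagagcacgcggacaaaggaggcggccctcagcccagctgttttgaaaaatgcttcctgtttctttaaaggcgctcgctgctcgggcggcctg
A match is a run of letters and not a measured binding site. The GC content of the windows was 62.8% for Id2 and Id3, 75.6% for Id4 and 63.2% for Atoh8, and GC-rich words occur more often in GC-rich DNA.

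The libraries held 18918880 to 25867997 counts. The label gives the tissue as stroma, but transcripts of epithelial cells dominated in every library, with 10 epithelial markers summing to between 19070 and 26780 CPM (counts per 1000000 counts of the library, after TMM scaling between libraries). The 7 fibroblast markers summed to 10.05 to 14.0 CPM in wild type and 17.8 to 25.5 CPM in knockout, and of the 7 blood endothelial markers Kdr, Flt1, Emcn, Tek and Cdh5 were each below 0.3 CPM in every library, Plvap reached 0.690 CPM, and Pecam1 was at 1.42 to 2.095 CPM in wild type and 2.13 to 4.78 CPM in knockout (no overlap, adjusted p = 0.317 in edgeR). Wild-type replicate 1 stood apart in smooth muscle markers, at 52.0 CPM against 14.1 to 17.2 CPM in the other libraries. In bulk RNA a lower level cannot be told apart as fewer cells of a type or less transcript per cell.

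Smad4 itself (ENSMUSG00000024515, chromosome 18, 73639009 to 73703780, mm10) was at 131.7, 152.6 and 111.0 CPM in wild-type replicates 1, 2 and 3 and at 92.0, 102.1 and 59.0 CPM in the knockout replicates. All knockout libraries lay below all wild-type libraries, and the knockout mean was 64.0% of the wild-type mean. Replicate 3 had the least Smad4 of the knockout libraries and replicate 2 the most. Smad4 did not pass the quasi-likelihood test of edgeR across all genes (log2 fold change -0.64 ± 0.21 SE, adjusted p = 0.338).

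Of the 5 genes, 4 had lower means in knockout, to between 47.6% and 64.8% of wild type, and Id4 stayed at 97.1%. Within the knockout group the values were far apart, and replicate 2 came close to wild type for Id1 and Id2. Groups are wild type first, with replicates in the order 1, 2, 3. Errors are SD over 3 libraries for levels, sums and shares, and SE of the edgeR fit for every log2 fold change.

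**Figure D1:**
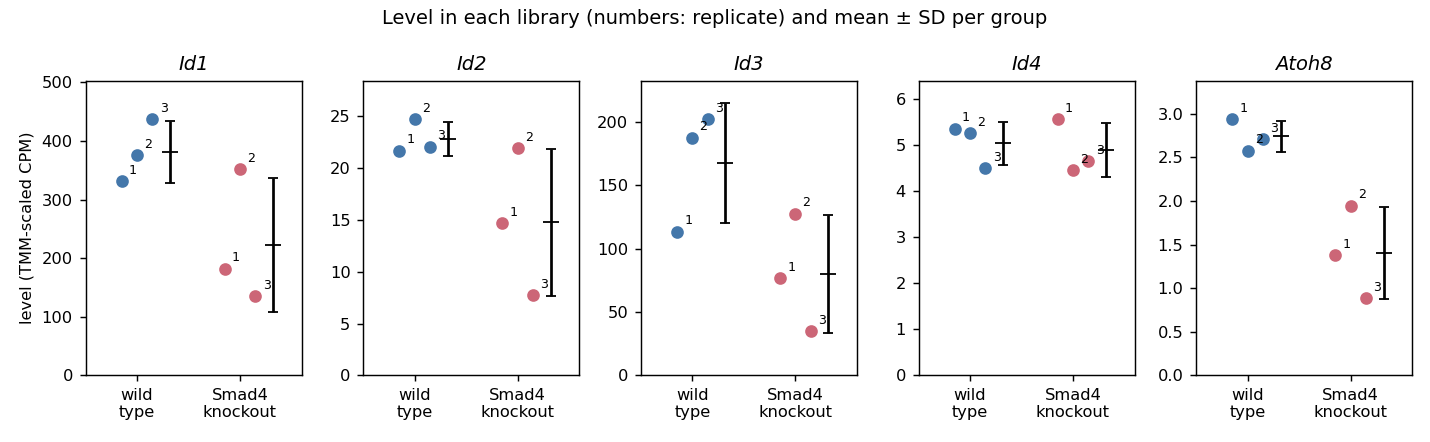
Level of each gene in TMM-scaled CPM (vertical axis from 0, a scale of its own for each gene) in the 3 wild-type and 3 knockout libraries, with replicate numbers beside the points and the mean ± SD as black bars. Atoh8 is the gene whose groups do not overlap, and Id4 has near-equal means of 5.05 and 4.90 CPM.

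Id1 (ENSMUSG00000042745, chromosome 2, 152736251 to 152737410, plus strand), the most abundant Id transcript here, was at 330.8, 376.2 and 436.6 CPM in wild type and at 182.0, 351.2 and 134.9 CPM in knockout. Knockout replicates 1 and 3 lay below every wild-type library, while replicate 2 lay above the lowest of them, so the groups overlapped. The means were 381.2 ± 53.1 and 222.7 ± 113.8 CPM, a log2 fold change of -0.78 ± 0.32 (SE).

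Id3 (ENSMUSG00000007872, chromosome 4, 136143497 to 136145755, plus strand), which is often induced with Id1 and acts redundantly with it in the mouse embryo, was at 113.3, 187.4 and 201.8 CPM in wild type and at 76.6, 127.5 and 35.1 CPM in knockout. Here too knockout replicate 2 exceeded the lowest wild-type library, replicate 1, and the other knockout libraries were below all of wild type. The mean went from 167.5 ± 47.4 to 79.8 ± 46.3 CPM, a log2 fold change of -1.07 ± 0.42 (SE). Knockout replicate 3 held 20.97% of the wild-type mean and replicate 2 held 76.1%.

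Id2 (ENSMUSG00000020644, chromosome 12, 25093799 to 25097140, minus strand), which is also required for innate lymphoid cells and peripheral lymphoid organs in the mouse, was at 21.7, 24.7 and 22.1 CPM in wild type and at 14.7, 21.9 and 7.73 CPM in knockout. The wild-type libraries lay close together, and knockout replicate 2 fell inside their range. The means were 22.8 ± 1.64 and 14.8 ± 7.09 CPM, a log2 fold change of -0.63 ± 0.32 (SE).

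Id4 (ENSMUSG00000021379, chromosome 13, 48261228 to 48266026, plus strand), a member with a more restricted expression in the mouse and a role in neural and mammary precursors, was at 5.37, 5.27 and 4.51 CPM in wild type and at 5.57, 4.47 and 4.66 CPM in knockout. The groups overlapped almost fully. The means were 5.05 ± 0.471 and 4.90 ± 0.587 CPM, and the log2 fold change was -0.04 ± 0.17 (SE). Exons of antisense A330033J07Rik and of Gm49291 overlap those of Id4, so without stated strand handling part of these 94 to 121 counts per library could be theirs.

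Atoh8 (ENSMUSG00000037621, chromosome 6, 72206177 to 72235577, minus strand) had the fewest reads of the 5, with 64, 48 and 68 counts in wild type and 30, 41 and 20 in knockout. Scaled, these were 2.94, 2.58 and 2.71 CPM and 1.38, 1.95 and 0.888 CPM. All knockout libraries lay below all wild-type libraries, as they did for 6.52% of all tested genes (knockout lay above wild type throughout for 6.76%). The means were 2.74 ± 0.180 and 1.41 ± 0.530 CPM, a log2 fold change of -0.97 ± 0.29 (SE).

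All 5 log2 fold changes were below 0, against 53.1% of the tested genes. Across all genes, the quasi-likelihood test at an adjusted p of 0.05 called 0% of the tested genes and 0 of the 5. DESeq2 called 2.18% of its tested genes (0.292% as lower) and 0 of the 5, and the edgeR exact test called 2.69% and 0 of the 5. At an unadjusted p of 0.05 in the quasi-likelihood test, 8.54% of all genes passed (3.35% as lower), and so did Id1, Id3 and Atoh8. By DESeq2 it was Id2, Id3 and Atoh8, with 1183 of all genes (392 as lower), where 15417 genes had an adjusted p. Without wild-type replicate 2 or 3, or knockout replicate 1 or 3, Atoh8 alone of the members passed in the quasi-likelihood test. In those 4 settings 1037 to 1243 of 14407 to 14499 tested genes passed (238 to 547 as lower). Without wild-type replicate 1, Id1, Id3 and Atoh8 passed, with 1864 of 14436 genes (801 as lower). Without knockout replicate 2 it was Id1, Id2, Id3 and Atoh8, with 1180 of 14417 genes (492 as lower). By DESeq2 without knockout replicate 3, Id3 alone of the members passed, with 947 of all genes (225 as lower). Atoh8 passed in the other DESeq2 fits with 1 library left out. By the adjusted p in the authors' deposited table, 2.86% of the genes that have one passed 0.05, again 0 of the 5. The log2 fold changes in the authors' deposited table were -0.62 for Id1, -0.50 for Id2, -0.62 for Id3, -0.03 for Id4 and -0.78 for Atoh8. Each was nearer 0 than in the edgeR and DESeq2 fits run here (-1.07 in both for Id3). The labels and column names point to different programs, so whether it is the same measure is not known. Nothing is read from these counts, since the genes were taken with this contrast known.

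The largest spread lay among the knockout libraries. The highest knockout library held 2.60 times the lowest for Id1, 2.83 times for Id2, 3.63 times for Id3 and 2.19 times for Atoh8, but 1.25 times for Id4. In wild type the same ratio was 1.32 for Id1, 1.14 for Id2, 1.78 for Id3, 1.19 for Id4 and 1.14 for Atoh8. Id1, Id2, Id3 and Atoh8 shared one order within knockout, with replicate 2 highest and replicate 3 lowest, and Smad4 had this order too. The order was met by 16.3% of all tested genes. For Id4 the order differed, with replicate 1 highest and replicate 2 lowest. In wild type, Smad4 was lowest in replicate 3, where Id1 and Id3 were highest, so the order was not shared there.

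**Figure D2:**
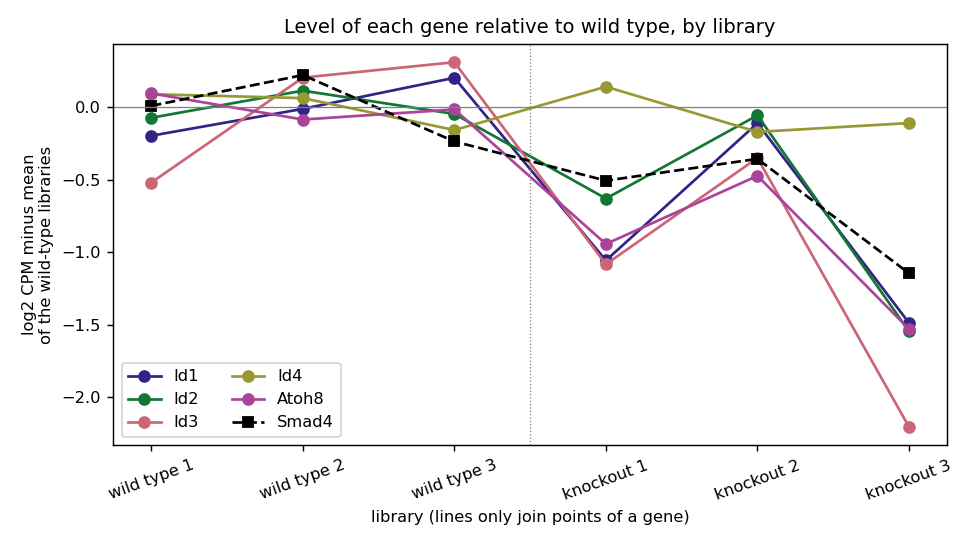
log2 CPM of each gene minus its mean over the wild-type libraries (vertical axis), by library (horizontal axis), with Smad4 dashed; each point is 1 library. Id1, Id2, Id3, Atoh8 and Smad4 are all lowest in knockout replicate 3, where Id3 reaches -2.21, while Id4 stays within 0.17 of its wild-type mean.

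Leaving out 1 library moved the size of the differences. Without knockout replicate 2 the log2 fold changes were -1.27 for Id1, -1.02 for Id2, -1.58 for Id3 and -1.27 for Atoh8. Without knockout replicate 3 they were -0.51, -0.31, -0.71 and -0.71 in the same order of genes. Those 4 stayed below 0 whichever library was left out, and that of Id4 lay between -0.14 and 0.02. Without knockout replicate 2, DESeq2 called 2 of the 5, Id1 and Id2, against 1.43% of all genes (0.356% as lower). The quasi-likelihood test called 0 of the 5 there. This DESeq2 setting was added after the data were seen and leaves out the knockout library nearest wild type for Id1 and Id2. Nothing is read from it, since the genes were taken with this contrast known. From the pathway lists read below, DESeq2 in that setting also called Smad4 and Cdkn1a. Without wild-type replicate 1, the library with the high smooth muscle markers and the lowest wild-type values of Id1, Id2 and Id3, the fold change of Id3 was -1.28.

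**Figure D3:**
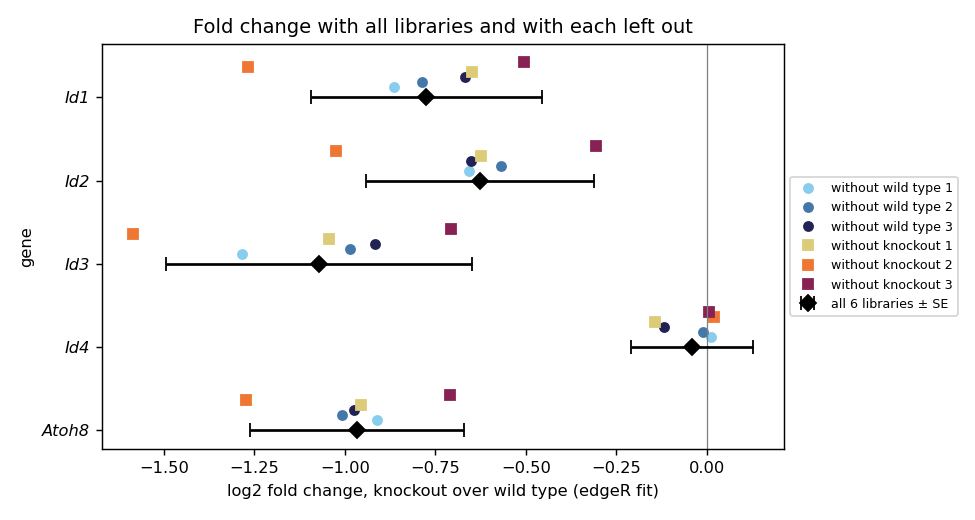
log2 fold change of knockout over wild type (horizontal axis) for each gene (vertical axis) in the edgeR fit, with all 6 libraries as black diamonds ± SE and with each library left out as coloured points. Omitting knockout replicate 2 or 3 gives the extreme values for Id1, Id2, Id3 and Atoh8, for example -1.58 and -0.71 for Id3.

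Compared per length of exon sequence, which allows levels of different genes to be set side by side, the wild-type order was Id1 (329 ± 45.8 CPM per kilobase), Id3 (93.5 ± 26.5), Id2 (9.35 ± 0.671), Id4 (1.31 ± 0.122) and Atoh8 (1.09 ± 0.0719). The last of these neighbours, Id4 and Atoh8, touched in their wild-type ranges of 1.17 to 1.39 and 1.03 to 1.17 CPM per kilobase, and the other neighbours did not overlap. In knockout the levels were 192 ± 98.1 for Id1, 44.5 ± 25.8 for Id3, 6.06 ± 2.91 for Id2, 1.27 ± 0.153 for Id4 and 0.561 ± 0.212 for Atoh8, in the same order.

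The 4 Id genes together held 471.1, 593.6 and 664.9 CPM in wild type and 278.8, 505.2 and 182.4 CPM in knockout, with means of 576.5 ± 98.0 and 322.1 ± 165.7 CPM. Knockout replicate 2 again fell within the wild-type range. Id1 made up 66.4 ± 3.47% of this sum, which is not corrected for length, in wild type and 69.6 ± 4.35% in knockout, less apart than the spread between libraries. The ratio of Id1 to Id3 in CPM was 2.92, 2.01 and 2.16 in wild type and 2.38, 2.75 and 3.84 in knockout, so the groups overlapped, with knockout replicate 3 the highest of all.

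The E proteins, the partners that Id proteins capture, were close to level across libraries. Tcf3, Tcf4 and Tcf12, encoded by the 3 mammalian E protein genes, summed to 159.6 ± 9.30 CPM in wild type and 166.0 ± 1.06 CPM in knockout. Of the 3 genes, 0 passed the test adjusted over all genes and 0 an unadjusted p of 0.05. Tcf4 had a log2 fold change of 0.17 ± 0.10 (SE, adjusted p = 0.749), Tcf12 of 0.05 ± 0.07 and Tcf3 of -0.03 ± 0.09. The ratio of summed Id to summed E protein transcripts was 2.77, 3.84 and 4.32 in wild type and 1.67, 3.07 and 1.10 in knockout. Knockout replicates 1 and 3 lay below all of wild type and replicate 2 above the lowest wild-type library. The ratio is of transcripts, and protein was not measured.

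**Figure D4:**
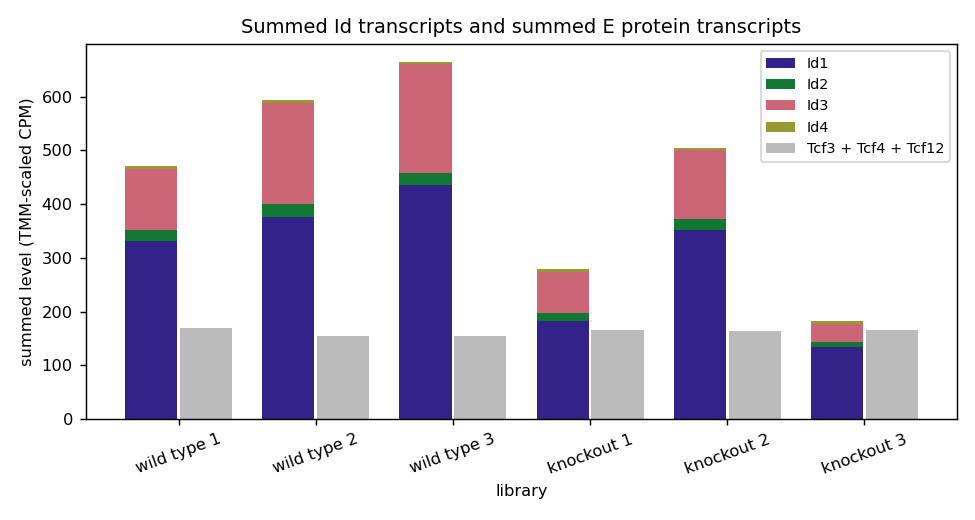
Summed level of the 4 Id genes (stacked bars) and of the 3 E protein genes (grey bars) in TMM-scaled CPM, for each library. The Id sum runs from 182.4 CPM in knockout replicate 3 to 664.9 CPM in wild-type replicate 3, while the E protein sum stays between 154.0 and 170.4 CPM.

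Summed markers of B cells, T cells and fibroblasts were higher in all knockout libraries than in all wild-type libraries, while the epithelial, endothelial, macrophage and neural sums overlapped. The 8 B cell markers summed to 23.8 to 36.8 CPM in wild type and 68.6 to 150.7 CPM in knockout, and knockout replicate 3, the lowest for Id1, Id2, Id3 and Atoh8, was also the lowest of its group for these markers. The epithelial sum was 19070 to 26780 CPM in wild type and 20682 to 22367 CPM in knockout. The 5 T cell markers summed to 12.8 to 15.3 CPM and to 17.1 to 30.8 CPM, and the 7 endothelial markers to 2.07 to 2.58 and to 2.40 to 6.03 CPM. Among the T cell markers the groups overlapped for Cd3d, Cd3e and Cd8a but not for Cd3g and Cd4. Among the fibroblast markers they overlapped for Pdgfrb (means 8.70 and 9.93 CPM), Col3a1 and Lum. They did not for Dcn (1.41 and 5.31 CPM), Col1a1, Col1a2 and Pdgfra. Knockout lay above wild type throughout for 6.76% of all tested genes. The macrophage sums, over the 6 markers that were found, were 125.8 to 182.7 and 152.3 to 203.8 CPM, of which most was Cd14. Lyz2, on the same list, had means of 10.5 and 33.8 CPM with no overlap between the groups, and its adjusted p was 0.134 in edgeR's quasi-likelihood test and 3.7e-05 in DESeq2. Csf1r had means of 1.32 and 3.36 CPM without overlap and an adjusted p of 0.235 in edgeR, and C1qa had means of 2.05 and 4.49 CPM with overlapping groups. The 3 enteric neural and glial markers in the table summed to less than 1 CPM per library. The part of these cell types in the Id and Atoh8 levels was not tested.

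The rest of the BMP pathway (5 lists) and neighbouring groups, namely TGF-beta response genes, E proteins, tissue bHLH factors and CDK inhibitors (4 lists), were read from 85 genes, of which 74 were listed and 46 passed the count filter. Of these 46, 0 passed the quasi-likelihood test over all genes, and 4 higher and 4 lower passed an unadjusted p of 0.05, against 5.19% and 3.35% of all tested genes. Their median log2 fold change was -0.04, and -0.01 over all genes. Of the 8 genes at that unadjusted p, Bmp8b, Smad4 and Smad6 came from the BMP lists and the other 5 from the neighbouring groups. DESeq2 called 1 of the 46, the bHLH factor gene Lyl1.

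Of 9 BMP ligand genes listed, 5 passed the filter, with 0 called and a median log2 fold change of 0.39. Bmp2, made by the upper colonic epithelium, was at 56.1 ± 14.4 and 48.5 ± 13.3 CPM (log2 fold change -0.21 ± 0.23, adjusted p = 0.909). Bmp3, which acts against other BMPs, was at 21.7 ± 9.81 and 41.5 ± 23.8 CPM with overlapping groups. Bmp8b, with a log2 fold change of 1.27 ± 0.41 (adjusted p = 0.338), was near the detection limit at 0.319 ± 0.118 and 0.776 ± 0.253 CPM, and Bmp8a had a log2 fold change of 0.39 ± 0.24. Bmp4, a ligand of colonic mesenchyme, did not pass the filter.

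Receptor transcripts had close means in both groups. Of 8 tested receptor and co-receptor genes, 0 passed over all genes or at an unadjusted p of 0.05, with a median log2 fold change of -0.02. Bmpr1a, the type I receptor of the intestinal epithelium, was at 128.0 ± 14.5 and 127.8 ± 8.38 CPM (log2 fold change -0.00 ± 0.10). Bmpr2, the type II receptor, was at 17.7 ± 2.41 and 20.1 ± 3.54 CPM. Acvrl1, Acvr2b and Rgma had log2 fold changes of -0.15 ± 0.16, -0.30 ± 0.29 and -0.38 ± 0.44.

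Among the transducers and their inhibitors, 0 of 7 tested genes passed over all genes, and Smad4 and Smad6 had an unadjusted p under 0.05. Smad1, a transducer of BMP receptors, was at 98.7 ± 7.79 and 103.7 ± 11.1 CPM (log2 fold change 0.07 ± 0.10, adjusted p = 0.937). Smad6, an inhibitory Smad that BMP itself induces, was at 20.96, 38.3 and 29.9 CPM in wild type and 20.6, 22.8 and 11.1 CPM in knockout. It shared the knockout order of Id1, Id2 and Id3, replicate 2 highest and replicate 3 lowest, and its groups overlapped (log2 fold change -0.71 ± 0.30, adjusted p = 0.561). That order was also met by Smad7, by Cdkn1a and by the summed B cell markers. Smad7, the inhibitory Smad of both branches, was at 62.4 ± 11.4 and 49.4 ± 12.5 CPM (log2 fold change -0.34 ± 0.20), and the ubiquitin ligase gene Smurf2 at 76.7 ± 6.07 and 79.9 ± 4.43 CPM.

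The list of other BMP response genes, which shares Smad6, Smad7, Smad9, Bambi, Hes1 and Hey1 with other lists, had 5 tested genes of 10 listed. Of these, 4 had a negative fold change, 0 passed over all genes, and the median log2 fold change was -0.31. Runx2 was the tested gene on no other list (log2 fold change 0.01 ± 0.37). Bambi, a decoy receptor induced by BMP, was at 2.92 ± 0.821 and 2.36 ± 0.329 CPM. Hes1, best known as a Notch target, was at 68.5 ± 6.68 and 63.8 ± 7.03 CPM. Msx1, Hey1, Hey2, Dlx3 and Smad9, classical BMP responses of other tissues, did not pass the filter.

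Of 13 antagonist genes listed, 6 passed the filter, 0 were called, and Nbl1 (log2 fold change -0.75 ± 0.39), Chrd (-0.50 ± 0.25) and Bmper (0.52 ± 0.51) were each below 5 CPM in both means. Twsg1, which binds BMPs together with chordin, was at 52.1 ± 8.49 and 53.3 ± 3.81 CPM. Grem1, the antagonist of the muscle layer beneath the crypts, did not pass the filter.

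The 5 tested TGF-beta response genes all had a positive fold change, with 0 past the test over all genes and a median log2 fold change of 0.20. Pmepa1, a feedback inhibitor of TGF-beta signalling, was at 19.8 ± 4.87 and 28.4 ± 5.30 CPM (log2 fold change 0.52 ± 0.20, adjusted p = 0.507). Skil, which encodes the corepressor SnoN, had means of 97.8 and 114.2 CPM (log2 fold change 0.22 ± 0.10, adjusted p = 0.571). Tgif1 and Cdkn2b had log2 fold changes of 0.15 ± 0.11 and 0.20 ± 0.19.

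**Figure D5:**
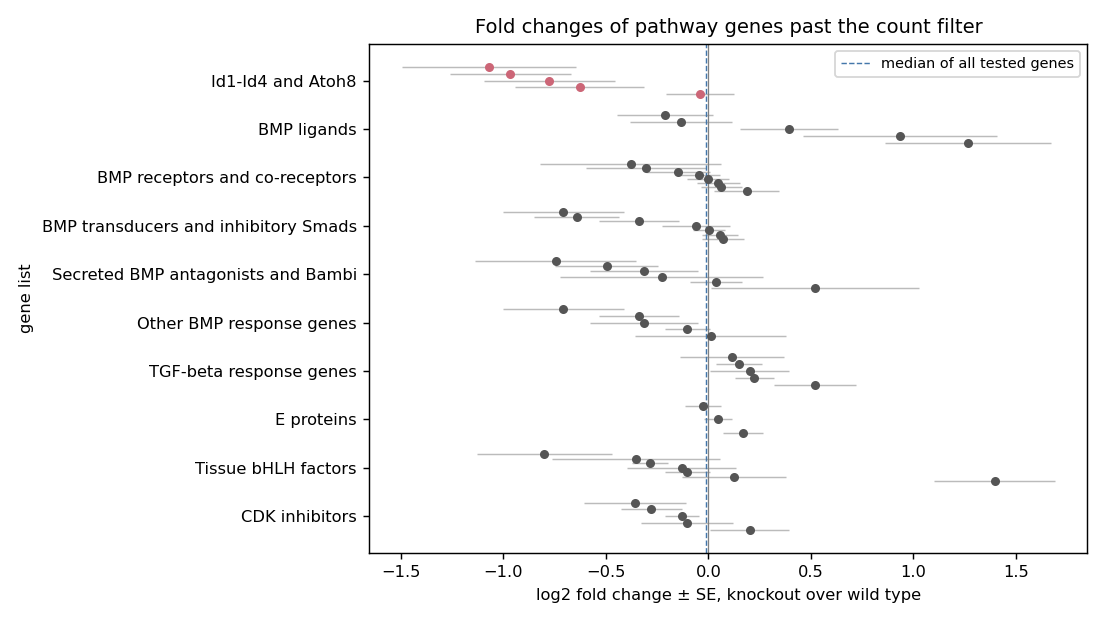
log2 fold change of knockout over wild type ± SE (horizontal axis) for the genes past the count filter in each list (vertical axis), with Id1-Id4 and Atoh8 in the top row and the median of all tested genes as a dashed line. The top row runs from -1.07 (Id3) to -0.04 (Id4), and the 8 receptor genes lie between -0.38 and 0.19.

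Of the tissue-specific bHLH factors, the other partners of E proteins, 7 were tested, with 1 higher and 2 lower at an unadjusted p of 0.05 and 0 over all genes. Atoh1, the factor of the secretory lineage and a relative of Atoh8, was at 79.8 ± 7.77 and 65.5 ± 1.45 CPM (log2 fold change -0.29 ± 0.09, adjusted p = 0.313), with no overlap between groups. Ascl2, a stem cell factor of the crypt, was at 3.04 ± 1.16 and 1.75 ± 0.378 CPM (-0.80 ± 0.33, adjusted p = 0.547). Lyl1, a blood cell factor, was at 1.45 ± 0.330 and 3.86 ± 1.11 CPM (1.40 ± 0.29, adjusted p = 0.129), and rose by DESeq2 (adjusted p = 0.00597), though not when knockout replicate 1 or 2 or wild-type replicate 2 was left out there. Of 5 tested CDK inhibitor genes, some of which Id proteins are known to hold down, 0 passed either threshold. Cdkn1a, which encodes p21, was at 329.1 ± 46.2 and 256.7 ± 98.3 CPM (log2 fold change -0.36 ± 0.25), Cdkn1b at 117.3 ± 8.51 and 107.3 ± 4.19 CPM, and Cdkn2c had -0.28 ± 0.15.

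Genes were also ranked by how closely their levels followed each member over the 6 libraries. The measure was the root mean square difference in log2 CPM after centring each gene on its own mean, over 9712 genes with a mean of at least 5 CPM. It describes these libraries, which share depth, group and dissection, and carries no test. For Id1 the closest were Rab11fip4, an effector of endosomal recycling (0.16), Axin2, the feedback inhibitor of Wnt signalling (0.21), and Cish, a suppressor of cytokine signalling (0.23), where the median gene was at 0.63. For Id2 they were Rab11fip4 (0.16), the potassium channel subunit gene Kcnf1 (0.21) and the mucus protein gene Fcgbp (0.22). For Id3 they were the somatostatin receptor gene Sstr1 (0.26), the solute carrier gene Slc16a9 (0.28) and the sulfotransferase gene Sult1a1 (0.35). Atoh8 was followed most closely by the matrix protein gene Sned1 (0.12), Axin2 (0.13) and Pdzd7 (0.16). Id4, which hardly varied, was closest to genes that hardly varied either, Uqcc, Camk2g and Clpb (0.03 each).

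Rab11fip4 was at 66.5 ± 6.48 CPM in wild type and 44.1 ± 19.5 CPM in knockout, and Axin2 at 40.1 ± 2.48 and 22.7 ± 6.22 CPM. Among the members, Id1 and Id2 differed by 0.21 on the same measure, Id1 and Atoh8 by 0.21, Id2 and Atoh8 by 0.21 and Id1 and Id3 by 0.31, whereas Id4 differed from Id1 by 0.65. Among the 9712 genes, Smad4 ranked 6 in closeness to Id2, 9 to Atoh8, 22 to Id3, 26 to Id1 and 9169 to Id4. Smad4 was lower in knockout by design and the members were taken with their own difference known, so these ranks are no independent evidence of a relation.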

How the data were processed

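Per the file headers, the deposited table holds 1 column per library and a fitted comparison. The authors deposited raw counts of reads over genes in the library columns. Per the labels' protocols, 51-base single-end reads were mapped to mm10 with TopHat 2.1.0, counted with HTSeq 0.5.4p5 and samtools 1.3.1, and compared by edgeR 3.4.2. Bowtie 0.12.2, mm8 and mm10 stand in the submitters' processing notes, and the comparison's column names are those of DESeq2. Whether counting used strand is not given. The authors' deposited adjusted p was used only for calls, and the authors' deposited log2 fold changes only where named. The authors' deposited mean signal, standard error, statistic (scores) and unadjusted p-value columns were not used.

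Counts were scaled by TMM, filtered with filterByExpr and compared by the quasi-likelihood test of edgeR 4.0.16 under R 4.3.3, in a model of group alone, with Benjamini-Hochberg adjustment over 14180 genes at 0.05. Standard errors are the absolute log2 fold change over the root of F. The test was checked on simulated data. Each library is taken as 1 mouse, as the labels count mice. No pair of libraries within a group agreed within sampling noise. A count of 3 equals 0.120 to 0.161 CPM, for counting error only. Log2 CPM used a prior count of 2. Exon lengths and gene positions came from GENCODE M21 (mm10), which holds 98.1% of the gene IDs, and promoter windows from RefSeq. With 3 libraries a group, the smallest two-sided permutation p is 0.1.

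The members and lists were chosen with earlier results of these data known. Genes named from a list were up to 4 with the smallest unadjusted p and those with a mean of at least 50 CPM. For the patterns, 3 genes per member were named, without predicted genes. Genes named as not past the filter, or to check the tissue, were chosen after their values were seen. Alternatives were scaling by RLE, by upper quartile or by totals, the omission of the filter, a minimum mean count of 10, the edgeR exact test, DESeq2 1.42.0, a replicate block, and each library left out. DESeq2 with each library left out was added after seeing the data. One marker list is not reported here.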

Additional observations from a re-analysis of the deposited data

How the results depend on the processing

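The log2 fold changes of the 5 genes moved by less than 1 SD between replicates under every alternative run. With 1 library left out they ranged, over edgeR and DESeq2, from -1.27 to -0.51 for Id1, -1.02 to -0.31 for Id2, -1.58 to -0.71 for Id3, -0.14 to 0.03 for Id4 and -1.27 to -0.71 for Atoh8, and the log2 ratio of the summed Id means from -1.32 to -0.56. The sign of Id4 therefore depends on the library left out. The count of members called was 0 in every setting except DESeq2 without knockout replicate 2, where it was 2. With 1 library left out the counts of called members ranged from 0 to 2.

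Over all genes, 0 were called with all libraries by the quasi-likelihood test (1211 at an unadjusted p of 0.05), 157 with no low-count filter, 336 by DESeq2 and 381 by the edgeR exact test. With 1 library left out the count ranged from 0 to 483, with 17 without wild-type replicate 1 and 266 without knockout replicate 3 in the quasi-likelihood test. DESeq2 called 483, 233 and 221 without wild-type replicate 1, 2 and 3 and 142, 229 and 374 without knockout replicate 1, 2 and 3. Of the other pathway genes 0 were called, 1 by DESeq2 and 1 by the exact test, and 0 to 4 with 1 library left out. The count at an unadjusted p of 0.05 was 8, and 4 to 11 with 1 library left out. The cause was not tested.

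The replicate numbers name libraries and were not shown to pair them. Deviations of same-numbered libraries correlated at -0.05, -0.14 and 0.14 for replicates 1, 2 and 3. With the replicate block, 0 genes and 0 members were called, and the log2 fold changes were -0.88 for Id1, -0.73 for Id2, -1.19 for Id3, -0.04 for Id4 and -1.01 for Atoh8. Depth limits Atoh8 most, at 20 to 68 counts per library. Groups of 3 are too small for a check of single outlying libraries.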
